A study of Sus scrofa with 6 samples.

Results

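Solute carriers are membrane proteins that move small molecules such as amino acids, sugars, metals, nucleotides and ions across membranes, either down a gradient or coupled to the movement of another ion. Each belongs to a numbered family, so that the symbol SLC25A3 names the third member of family 25, the mitochondrial carriers. In the uterus, carriers of the surface epithelium supply glucose, amino acids and ions to the uterine lumen, and carriers of the Golgi deliver the activated sugars and sulfate that build the glycans of the cell surface.

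The genes described here were all rows of the deposited expression table whose gene name begins with SLC and a family number, except SLC2A3. The rule found 150 rows of 10915 with values. The 150 rows held 149 symbols in 37 families, because SLC7A1 stood under 2 identifiers. Some names do not denote carriers: SLC9A3R1 and SLC9A3R2 encode scaffold proteins that anchor membrane proteins to the cytoskeleton, and SLC4A1AP encodes an adaptor protein. All 150 reached the mean level of 1 FPKM needed to enter the test. Of their identifiers, 125 were found in the reference gene table, where only their presence was checked and not whether the names match. The other 25 were not found, and for those 25 the identity rests on the deposited name alone. Of the genes described below, these include SLC2A1, SLC2A13, SLC16A1, SLC20A2, SLC25A12, SLC25A36, SLC25A37, SLC26A2, SLC29A3, SLC37A3, SLC39A7, SLC39A14 and a row of SLC7A1.

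Total RNA came from primary pig endometrial epithelial cells at passage 3, grown from uteri of slaughtered animals in medium with fetal bovine serum. The EXO group received 10 µg of seminal exosomes per well for 48 h, and the CTRL group received no exosomes. The exosomes were precipitated with a polymer kit from the sperm-rich fraction of boar seminal fluid, so the dose is a protein mass of a precipitate. Each group held 3 libraries. Whether the libraries within a group derive from different uteri, seminal fluids or wells is left unsaid in the labels. The p-values therefore set the difference between groups against the scatter among these libraries, which could be technical scatter.

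Levels are in FPKM, fragments scaled by transcript length and by library size, which allows genes of different length to be compared. Changes are log2 changes of FPKM + 1, EXO over CTRL, from limma, and adjusted p-values are by Benjamini-Hochberg across the 10846 genes tested. A gene was called at an adjusted p under 0.05. Groups are said not to overlap where every EXO library lay on the same side of every CTRL library. Sums of FPKM over the whole table were 690258 to 711250 in the EXO libraries and 721273 to 732922 in the CTRL libraries. Counts were not analysed here, so the depth is unknown. Over all genes tested, EXO replicate 2 lay nearest to CTRL replicates 3 and 2, with an SD of log2 differences of 0.20 for both, and farther from EXO replicates 1 and 3, with 0.24 and 0.25. Values without that library are given beside the main results that it moved.

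The epithelial keratins KRT8, KRT18 and KRT19 averaged 2800, 1222 and 2925 FPKM in the EXO libraries and 3037, 1255 and 3193 FPKM in the CTRL libraries. The 8 epithelial markers found, of 10 listed, summed to 11331 to 12416 FPKM in the EXO libraries and 13131 to 13548 FPKM in the CTRL libraries. The 5 stromal markers found, of 10 listed, summed to 2274 to 2494 FPKM in the EXO libraries and 2788 to 3042 FPKM in the CTRL libraries, mostly from CD90 and VIM. The leukocyte markers CD14, CD68 and LYZ summed to 9.49 to 12.5 FPKM in the EXO libraries and 10.8 to 12.3 FPKM in the CTRL libraries. KDR was the 1 of 7 endothelial and muscle markers found, at 0.968 to 1.16 FPKM in EXO and 1.26 to 1.96 FPKM in CTRL, and MSMB the 1 of 10 sperm and seminal markers, at 21.3 to 24.03 FPKM in EXO and 21.2 to 28.5 FPKM in CTRL. The sums of epithelial and stromal markers were thus both lower in the EXO libraries, and their part in the carrier results was not tested. Single markers were less uniform. CD90 was the only 1 of 5 stromal markers whose groups did not overlap. Of the 8 epithelial markers, 5 were lower without overlap, against 10.4% of all genes tested, while TACSTD1 averaged 357.9 FPKM in EXO and 345.8 FPKM in CTRL. In such bulk samples, fewer cells of a type and less RNA per cell cannot be told apart.

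The share of solute carriers that differed between EXO and CTRL was close to the share among all genes. None of the 150 passed an adjusted p of 0.05 in limma, as for 0% of all genes tested, and the smallest adjusted p of a carrier was 0.145. At an unadjusted p under 0.05 there were 20 carriers, 13.3% of the family, against 12.6% of all genes tested. Of these, 8 were higher in EXO, against a share of 5.06% of all genes, and 12 were lower, against 7.5% of all genes. The groups did not overlap for 30 carriers, 20% of the family, against 18.7% of all genes tested. Of these 30, 12 were higher (8.29% of all genes were) and 18 were lower (10.4% of all genes were). The median log2 change was -0.01 over the carriers and -0.00 over all genes tested, and 70 carriers had a positive and 80 a negative log2 change, against 49.2% and 50.8% of all genes tested.

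The changes were small in size as well. The 5th and 95th percentiles of the log2 changes were -0.24 and 0.21 over the carriers, and -0.24 and 0.21 over all genes tested. The median absolute log2 change was 0.07 over the carriers and 0.08 over all genes tested. A log2 change of 0.2 or more in either direction was seen for 24 carriers, and the share of all genes at that bound was not computed. The range ran from -0.47 for SLC15A1 to 0.40 for SLC16A3. Replicates of the EXO group varied more than those of CTRL: the median coefficient of variation over the carriers was 8.04% in EXO and 5.76% in CTRL, and it was larger in EXO for 104 of the 150 rows. This was not particular to carriers. Over all genes tested, the SD of log2 differences was 0.22 to 0.25 between EXO libraries and 0.17 to 0.21 between CTRL libraries. The carriers together summed to 5197, 5232 and 5386 FPKM in EXO replicates 1 to 3, and to 5309, 5323 and 5259 FPKM in CTRL replicates 1 to 3. These sums overlapped. As a share of all FPKM they were 0.753%, 0.739% and 0.757% in the EXO libraries and 0.726%, 0.726% and 0.729% in the CTRL libraries. The shares did not overlap, while the total FPKM that divides them was lower in EXO.

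**Figure D1:**
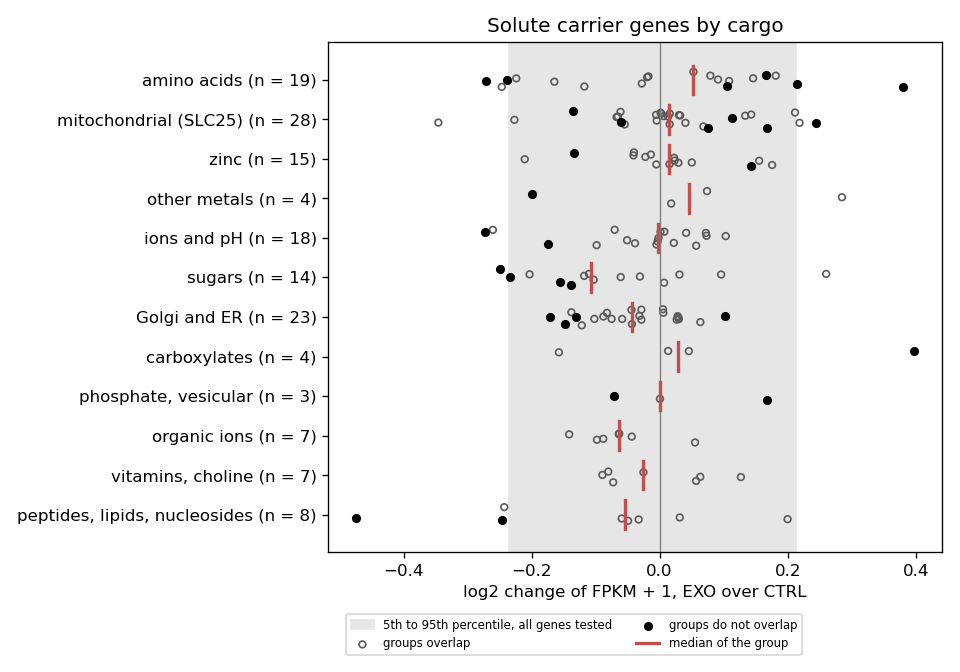
Log2 change of FPKM + 1 (EXO over CTRL, x axis) of each of the 150 solute carrier rows, arranged by what the family carries. Filled points are the 30 carriers whose groups did not overlap, open points the others, red bars the group medians, and the grey band the 5th to 95th percentile of all genes tested; most carriers lie inside the band, and the medians run from -0.11 for sugars to 0.05 for amino acids.

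SLC15A1, on chromosome 11 at 67652808 to 67690457 of Sscrofa11.1 as RefSeq places that symbol, encodes the proton-coupled transporter of dipeptides and tripeptides best known from the intestine. Its level was 18.9, 19.6 and 22.4 FPKM in EXO replicates 1 to 3 and 27.4, 30.0 and 28.2 FPKM in CTRL replicates 1 to 3. All 3 EXO libraries lay below all CTRL libraries, with a gap wider than the spread within either group. The log2 change of -0.47 had an SE of 0.07 and did not pass over all genes tested (limma adjusted p = 0.145). Without EXO replicate 2 it passed, at a log2 change of -0.45 (adjusted p = 0.0431), as did 2.74% of all genes tested. Its own evidence was not stronger there, because its unadjusted limma p rose from 0.000251 with all libraries to 0.000989. The other peptide carriers of the family, SLC15A3 and SLC15A4 of the endolysosomal membrane, had log2 changes of 0.03 and -0.05 and were named after their values were seen.

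SLC26A2, a sulfate and anion exchanger of the plasma membrane (chromosome 2, 150996868 to 151027483), was next by the test. Its level was 10.8, 11.8 and 11.8 FPKM in the EXO libraries and 14.4, 13.7 and 14.1 FPKM in the CTRL libraries, in order of replicate. No libraries of the groups overlapped, and the log2 change was -0.27 with an SE of 0.06 (limma adjusted p = 0.234). SLC29A3, a nucleoside transporter of lysosomes and mitochondria (chromosome 14, 74222988 to 74267527), was at 14.7, 14.002 and 15.8 FPKM in EXO and 17.8, 17.9 and 17.6 FPKM in CTRL. Its CTRL libraries lay close together and all EXO libraries lay below them (log2 change -0.25, adjusted p = 0.243). SLC41A1, which moves magnesium across the plasma membrane, averaged 22.3 ± 1.14 FPKM in EXO and 25.8 ± 1.09 FPKM in CTRL (SD, n = 3 each; log2 change -0.20). Neither SLC26A2, SLC29A3 nor SLC41A1 passed the test. The identifiers of the SLC26A2 and SLC29A3 rows were not found in the reference table, so their locations rest on the symbol alone.

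SLC16A3, the lactate exporter MCT4 of glycolytic cells (chromosome 12, 796882 to 807480), had the highest positive log2 change of the family. It was at 59.4, 65.8 and 81.3 FPKM in the EXO libraries and 56.4, 49.8 and 48.9 FPKM in the CTRL libraries. EXO replicate 1 lay close above CTRL replicate 1, and EXO replicate 3 stood highest (log2 change 0.40 with an SE of 0.11, limma adjusted p = 0.284). SLC16A1, the related lactate and pyruvate carrier MCT1, was at 36.7, 26.5 and 36.4 FPKM in EXO and 32.5, 34.02 and 29.1 FPKM in CTRL. Its EXO replicate 2 lay below every CTRL library and the other EXO libraries lay above them, so the groups overlapped (log2 change 0.05, and 0.20 without EXO replicate 2). SLC16A5, whose cargo is less well known, averaged 3.05 ± 0.575 FPKM in EXO and 3.49 ± 0.266 FPKM in CTRL (SD, n = 3 each).

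**Figure D2:**
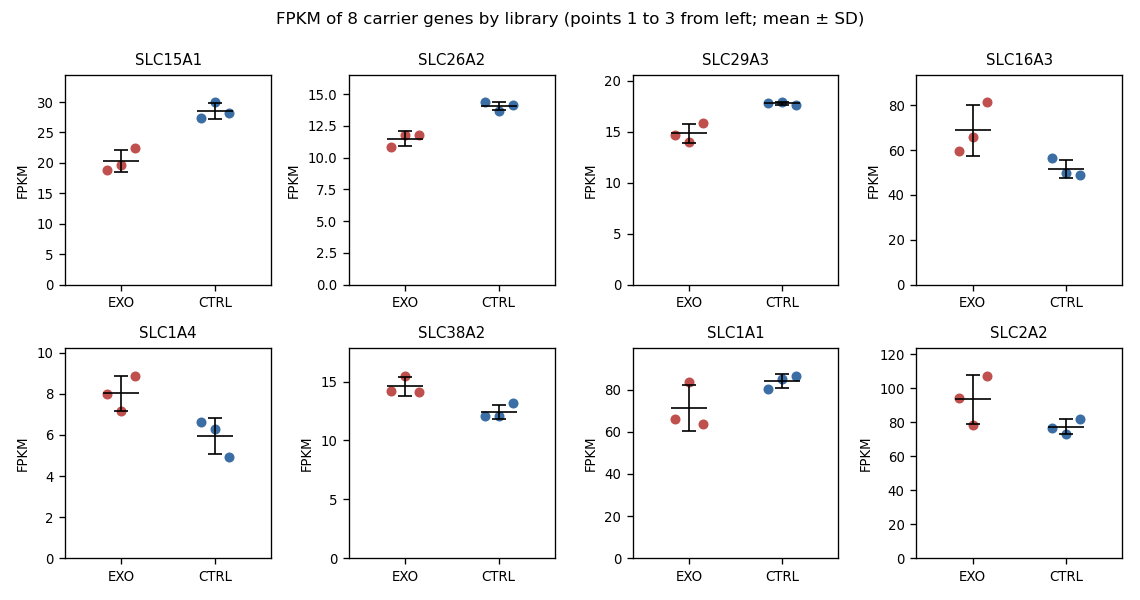
FPKM of 8 carriers in each library (y axis from 0), with points for replicates 1 to 3 from left to right and the mean ± SD (n = 3). For SLC15A1, SLC26A2, SLC29A3, SLC16A3, SLC1A4 and SLC38A2 the EXO and CTRL libraries do not overlap, while for SLC1A1 and SLC2A2 EXO replicate 2 (83.6 and 78.7 FPKM) lies among the CTRL libraries.

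Amino acid carriers showed differences in both directions. The families SLC1, SLC6, SLC7, SLC36, SLC38 and SLC43 gave 19 rows, of which 10 had a positive and 9 a negative log2 change, with a median of 0.05. At an unadjusted p under 0.05, 3 were higher and 2 lower, where the shares of all genes tested were 5.06% and 7.5%. The groups did not overlap for 4 higher and 2 lower rows, against 8.29% and 10.4% of all genes tested. The median was sensitive to single libraries, at -0.01 to 0.05 with 1 library left out and 0.02 without EXO replicate 2.

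SLC1A4, the exchanger ASCT1 (chromosome 3, 76938102 to 76970519), was at 7.99, 7.19 and 8.88 FPKM in EXO and 6.61, 6.30 and 4.95 FPKM in CTRL. Every EXO library lay above every CTRL library, and the log2 change was 0.38 with an SE of 0.11 (limma adjusted p = 0.299). SLC38A2, the sodium-coupled transporter SNAT2 that cells raise on amino acid shortage, was at 14.2, 15.5 and 14.1 FPKM in EXO and 12.1, 12.1 and 13.1 FPKM in CTRL (log2 change 0.21). SLC1A5, the glutamine exchanger ASCT2, was at 148.3, 151.4 and 145.5 FPKM in EXO and 144.0, 138.8 and 130.9 FPKM in CTRL (log2 change 0.11). The groups did not overlap for SLC38A2 and SLC1A5 either, and neither passed (adjusted p = 0.304 and 0.422).

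SLC7A1, the arginine and lysine transporter CAT1, stood in the table under 2 identifiers. Under ENSSSCG00000029456 it was at 29.2, 31.3 and 29.8 FPKM in EXO and 25.1, 27.97 and 27.1 FPKM in CTRL, with no overlap (log2 change 0.17). Under ENSSSCG00000009324, whose identifier was not found in the reference table, it was at 36.9, 42.9 and 40.6 FPKM in EXO and 31.3, 37.1 and 37.4 FPKM in CTRL (log2 change 0.18). Both rows had the same direction, but they carry the same name and the counting could have split reads between them, so they are not separate observations.

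SLC1A1, the glutamate and cysteine transporter EAAT3, was at 66.0, 83.6 and 63.7 FPKM in EXO and 80.3, 85.0 and 86.6 FPKM in CTRL. EXO replicates 1 and 3 lay below all CTRL libraries and EXO replicate 2 lay among them (log2 change -0.25, limma adjusted p = 0.373). Without EXO replicate 2, SLC1A1 fell at a log2 change of -0.37 and passed (adjusted p = 0.0225), as did 2.74% of all genes tested. Leaving out the EXO library that lay among CTRL necessarily widens the difference, so this pass adds no support. SLC6A14, a broad transporter of neutral and cationic amino acids in mucosal epithelia, was at 18.9, 21.1 and 17.02 FPKM in EXO and 21.1, 22.2 and 23.6 FPKM in CTRL (log2 change -0.22). SLC7A2 and SLC7A4, family members of low level, averaged 1.02 and 1.59 FPKM in EXO and 1.38 and 2.13 FPKM in CTRL, and their groups did not overlap. SLC6A14, SLC7A2 and the second row of SLC7A1 were named after their values were seen.

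The most abundant amino acid carrier was SLC1A6, the glutamate transporter EAAT4 known mainly from the cerebellum. It was at 290.8, 376.5 and 304.7 FPKM in EXO and 296.6, 296.7 and 302.2 FPKM in CTRL. EXO replicate 2 alone stood apart from 5 similar libraries, and the log2 change of 0.11 turned to -0.00 without it. The order of levels in the SLC1 family was SLC1A6, then SLC1A5, then SLC1A1, then SLC1A4, and no 2 neighbours in that order overlapped in any library.

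Genes outside the carrier family that respond to amino acid shortage through the transcription factor ATF4 were listed for comparison. The list was chosen with earlier results of these data known. Of the 16 found among 20 listed, 12 had a positive and 4 a negative log2 change, with a median of 0.07 (0.05 without EXO replicate 2). At an unadjusted p under 0.05, 3 were higher and 0 lower, against 5.06% and 7.5% of all genes tested, and in limma 0 passed over all genes tested. VLDLR, a lipoprotein receptor, averaged 49.6 ± 2.03 FPKM in EXO and 43.3 ± 1.29 FPKM in CTRL. STC2, a secreted glycoprotein, averaged 16.5 ± 2.27 FPKM in EXO and 13.01 ± 0.799 FPKM in CTRL. CHAC1, which degrades glutathione, averaged 47.6 ± 4.79 FPKM in EXO and 41.7 ± 1.73 FPKM in CTRL (SD, n = 3 each throughout). ATF4 itself had a log2 change of -0.01.

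The sugar families SLC2, SLC5, SLC45 and SLC50 had 14 members, whose median log2 change was -0.11. SLC5 also holds carriers of other cargo, among them SLC5A5 for iodide, SLC5A6 for vitamins and SLC5A7 for choline, which are counted here. Of these, 10 had a negative and 4 a positive log2 change, and with an unadjusted p below 0.05 there were 2 lower members and 1 higher, against 7.5% and 5.06% of all genes tested. The median stayed between -0.13 and -0.07 with any 1 library left out. It was the lowest of the cargo groups with all libraries, but organic ions were lower without EXO replicate 2 (-0.10), and vitamins and choline were lower without CTRL replicate 3 (-0.08). SLC2A1, the glucose transporter GLUT1, was at 193.7, 210.7 and 211.4 FPKM in EXO and 226.2, 230.2 and 208.6 FPKM in CTRL, and CTRL replicate 3 lay below 2 EXO libraries (log2 change -0.11). SLC45A3, a sucrose and proton cotransporter, was at 16.8, 13.3 and 17.2 FPKM in EXO and 19.4, 19.2 and 17.8 FPKM in CTRL (log2 change -0.25, and -0.14 without EXO replicate 2). SLC2A8, the intracellular hexose transporter GLUT8, averaged 9.69 ± 0.587 FPKM in EXO and 10.9 ± 0.205 FPKM in CTRL (SD, n = 3 each). Neither SLC45A3 nor SLC2A8 had overlapping groups, nor did SLC5A5, the iodide transporter, or SLC2A12, both named after their values were seen. These 4 lower members of 14 stand beside 10.4% of all genes tested.

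SLC2A2, the glucose transporter GLUT2 known from liver and pancreatic islets, ran the other way. It was at 94.3, 78.7 and 107.4 FPKM in EXO and 76.9, 73.2 and 81.9 FPKM in CTRL. EXO replicates 1 and 3 lay above all CTRL libraries and EXO replicate 2 lay among them (log2 change 0.26, limma adjusted p = 0.378). Without EXO replicate 2, SLC2A2 rose at a log2 change of 0.38 and passed (adjusted p = 0.0496), as did 2.74% of all genes tested. Here too the EXO library left out was the one among CTRL, so the pass adds no support. SLC2A13, the proton-coupled transporter of myo-inositol, was at 143.5, 87.9 and 153.0 FPKM in EXO and 126.1, 126.2 and 137.8 FPKM in CTRL. Its EXO replicate 2 lay far below the CTRL libraries while the other EXO libraries lay above them, so that the log2 change of -0.06 turned to 0.19 without that library. The identifier of this row was not found in the reference table, which gives SLC2A13 to another row at 18.8, 19.9 and 22.6 FPKM in EXO and 19.8, 24.05 and 26.95 FPKM in CTRL, so the SLC2A13 level is uncertain.

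Mitochondrial carriers, family SLC25, exchange metabolites between the cytosol and the mitochondrial matrix. They formed the largest family, with 28 members that summed to 1865, 1800 and 1888 FPKM in EXO and 1882, 1848 and 1789 FPKM in CTRL. Their median log2 change was 0.01, with 18 positive and 10 negative, and the median ran from -0.01 without CTRL replicate 3 to 0.06 without EXO replicate 2. At an unadjusted p under 0.05, 2 were higher and 1 lower, against 5.06% and 7.5% of all genes tested. Groups without overlap were found for 4 higher and 2 lower members, against 8.29% and 10.4% of all genes tested.

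The 3 most abundant members overlapped between the groups. SLC25A3, the phosphate carrier that feeds ATP synthesis and the most abundant carrier of all, was at 666.9, 661.6 and 668.2 FPKM in EXO and 677.1, 679.9 and 636.7 FPKM in CTRL. SLC25A5, an exchanger of ADP and ATP, averaged 376.4 ± 21.7 FPKM in EXO and 365.7 ± 11.2 FPKM in CTRL (SD, n = 3 each; log2 change 0.04). SLC25A39, which brings glutathione into mitochondria in human and mouse cells, averaged 227.8 ± 15.4 FPKM in EXO and 225.4 ± 4.78 FPKM in CTRL (log2 change 0.01). The EXO and CTRL libraries overlapped for all 3.

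Several other mitochondrial carriers stood apart. SLC25A12, the aspartate and glutamate exchanger of the malate-aspartate shuttle, was at 12.1, 11.5 and 13.9 FPKM in EXO and 10.1, 10.3 and 10.7 FPKM in CTRL (log2 change 0.24 with an SE of 0.08, limma adjusted p = 0.313). SLC25A37, the iron importer mitoferrin, was at 22.02, 21.4 and 24.3 FPKM in EXO and 19.3, 19.9 and 20.7 FPKM in CTRL (log2 change 0.17). SLC25A1, which exports citrate for fatty acid and sterol synthesis, was at 103.3, 110.9 and 113.7 FPKM in EXO and 124.3, 116.8 and 119.2 FPKM in CTRL (log2 change -0.14). The groups did not overlap for SLC25A12, SLC25A37 or SLC25A1, and none of them passed. SLC25A15, which carries ornithine, and SLC25A36, which carries pyrimidine nucleotides, had log2 changes of 0.11 and 0.08, also with no overlap. SLC25A44, named after its values were seen, was the other lower member whose groups did not overlap. The identifier of the SLC25A12 row was not found in the reference table, which gives that name to a row with a log2 change of 0.16 whose groups overlapped.

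Zinc carriers comprise the SLC30 family, which moves zinc out of the cytosol, and the SLC39 family, which moves it in. Together they had 15 members, 8 with a positive and 7 with a negative log2 change, and a median of 0.02 (-0.01 to 0.02 with 1 library left out). SLC39A6, a zinc importer of the plasma membrane, was at 36.8, 35.8 and 34.97 FPKM in EXO and 31.4, 32.6 and 33.1 FPKM in CTRL (log2 change 0.14, limma adjusted p = 0.336). SLC30A9, a zinc exporter of mitochondria and the most abundant zinc carrier, was at 113.8, 105.1 and 117.1 FPKM in EXO and 117.5, 123.0 and 128.2 FPKM in CTRL (log2 change -0.13, and -0.09 without EXO replicate 2). SLC39A6 and SLC30A9 were the only zinc carriers of 15 whose groups did not overlap, against 18.7% of all genes tested, and for SLC30A9 the nearest libraries were almost equal.

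SLC39A14, an importer of zinc and iron, averaged 18.2 ± 1.38 FPKM in EXO and 16.2 ± 0.361 FPKM in CTRL (log2 change 0.16). SLC39A7, which releases zinc from the endoplasmic reticulum, was at 44.7, 43.6 and 69.0 FPKM in EXO and 54.3, 58.8 and 65.8 FPKM in CTRL, the widest EXO spread of the zinc carriers. SLC39A1, another importer of the plasma membrane, averaged 55.0 ± 1.18 FPKM in EXO and 55.2 ± 0.990 FPKM in CTRL (SD, n = 3 each throughout). Among metal-responsive genes outside the family, 8 of 17 listed were found, 2 with a positive and 6 with a negative log2 change and a median of -0.02. The zinc-binding metallothioneins MT1A and MT2A had log2 changes of -0.04 and 0.10, and ACO1, the iron-responsive aconitase, had one of -0.14 with no overlap between groups. Among carriers of other metals, SLC41A2, SLC41A3 and SLC31A2 averaged 1.39, 6.91 and 5.68 FPKM in EXO and 0.956, 6.80 and 5.33 FPKM in CTRL.

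**Figure D3:**
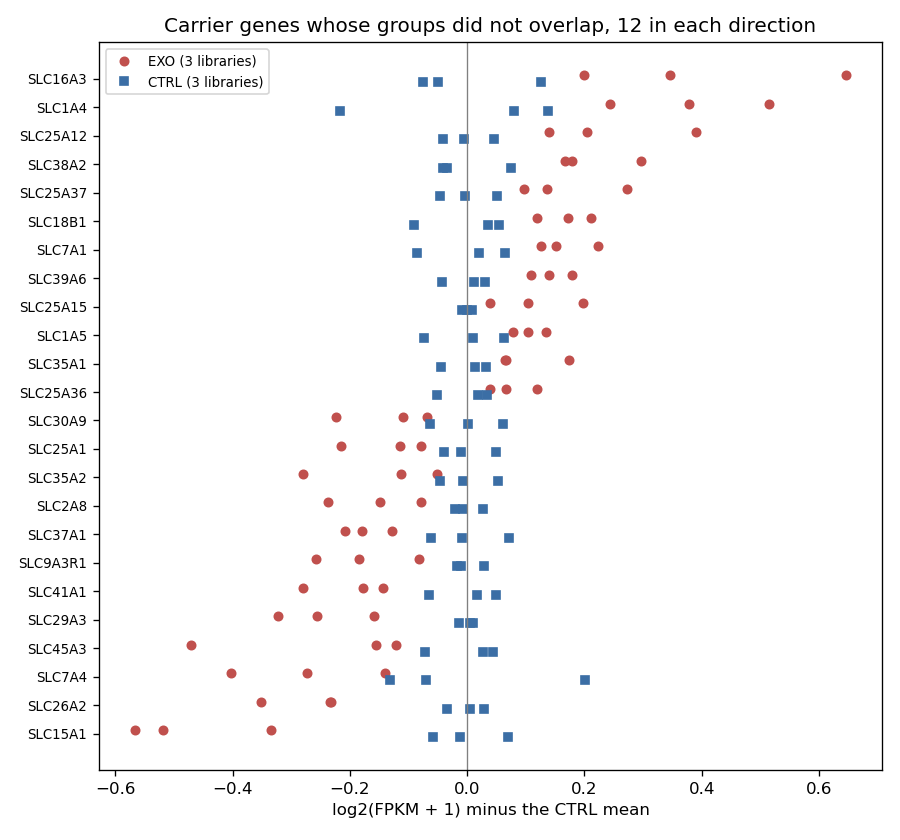
Log2(FPKM + 1) of each library minus the CTRL mean (x axis) for the 24 carriers with the smallest p among those whose groups did not overlap, 12 in each direction. EXO libraries are red circles and CTRL libraries blue squares; the gap is widest for SLC15A1, at 18.9 to 22.4 FPKM in EXO and 27.4 to 30.0 FPKM in CTRL.

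Families SLC33, SLC35 and SLC37 were grouped by number as carriers of the Golgi and endoplasmic reticulum, and the location of each member was not checked. Of their 23 members, 15 had a negative and 8 a positive log2 change, against 50.8% and 49.2% of all genes tested. The median log2 change was -0.04. The median was -0.02 without EXO replicate 2 and -0.06 without EXO replicate 1. Their summed level was 597.5, 606.7 and 611.5 FPKM in EXO and 620.0, 624.8 and 621.2 FPKM in CTRL. As a share of all FPKM, which was lower in every EXO library, the sums were 0.0866%, 0.0857% and 0.0860% in EXO and 0.0848%, 0.0852% and 0.0861% in CTRL, and these shares overlapped. SLC35A2, which supplies UDP-galactose to the Golgi, was at 51.1, 57.5 and 60.0 FPKM in EXO and 64.5, 61.9 and 60.2 FPKM in CTRL (log2 change -0.15). SLC35B2, which supplies the sulfate donor PAPS, was at 38.5, 44.005 and 39.4 FPKM in EXO and 44.9, 44.5 and 44.1 FPKM in CTRL (log2 change -0.13). SLC35A1, which supplies CMP-sialic acid, was at 22.4, 22.5 and 24.3 FPKM in EXO and 21.6, 20.7 and 21.9 FPKM in CTRL (log2 change 0.10). The groups did not overlap for SLC35A2, SLC35B2 and SLC35A1, although the nearest libraries of SLC35A2 and SLC35B2 were almost equal. With SLC37A1, 1 higher and 3 lower members of 23 had groups without overlap, against 8.29% and 10.4% of all genes tested.

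SLC35A3, which carries UDP-N-acetylglucosamine, and SLC35F2 were the most abundant of this group, at 92.9 ± 3.09 and 81.4 ± 2.19 FPKM in EXO and 91.0 ± 1.26 and 79.9 ± 0.824 FPKM in CTRL (SD, n = 3 each). All 3 members of SLC37, a family that includes exchangers of sugar phosphates for phosphate at the endoplasmic reticulum, had negative log2 changes. SLC37A1 was at 29.6, 31.4 and 30.3 FPKM in EXO and 32.9, 34.2 and 36.2 FPKM in CTRL, with no overlap (log2 change -0.17, limma adjusted p = 0.313). SLC37A3 and SLC37A4, named after their values were seen, had log2 changes of -0.09 and -0.14, and SLC37A4 was at -0.21 without EXO replicate 2.

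Ion and pH carriers, families SLC4, SLC8, SLC9, SLC12, SLC24 and SLC26, had 18 members with a median log2 change of -0.00 (-0.04 to 0.02 with 1 library left out). Apart from SLC26A2, the member that stood apart was the scaffold SLC9A3R1, also called NHERF1. It was at 134.8, 142.0 and 152.4 FPKM in EXO and 164.7, 160.2 and 159.6 FPKM in CTRL, with no overlap (log2 change -0.18, limma adjusted p = 0.303). SLC26A2 and SLC9A3R1 were the only members of 18 whose groups did not overlap, both lower, against 10.4% of all genes tested. EZR, encoding ezrin, the cytoskeletal partner of this scaffold, averaged 371.9 ± 20.6 FPKM in EXO and 411.2 ± 4.94 FPKM in CTRL. The bicarbonate carriers SLC4A4 and SLC4A2 averaged 60.1 ± 8.63 and 57.5 ± 2.34 FPKM in EXO and 61.7 ± 7.95 and 57.5 ± 2.83 FPKM in CTRL (SD, n = 3 each). SLC12A2, the sodium, potassium and chloride cotransporter of secretory epithelia, was named after its values were seen. It was at 48.8, 80.8 and 36.6 FPKM in EXO and 48.7, 60.3 and 60.7 FPKM in CTRL, so that EXO replicate 2 was the highest library and EXO replicate 3 the lowest. The log2 change was -0.10 with all libraries and -0.40 without EXO replicate 2.

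Proteins taken as working beside carriers at the membrane were listed for comparison, with earlier results of these data known. Whether each of them partners a carrier was not checked. Of 8 such partners found among 12 listed, 7 had a negative log2 change, against 50.8% of all genes tested. The groups of 5 did not overlap, all lower in EXO, against 10.4% of all genes tested. These were GLMP, CA2, EZR, NPTN and CLDND1. For a short list chosen that way, the contrast cannot be read as a result about partners. CA2, a carbonic anhydrase that works with bicarbonate carriers, was at 226.0, 311.3 and 251.3 FPKM in EXO and 336.1, 349.6 and 354.9 FPKM in CTRL (log2 change -0.41, limma adjusted p = 0.249). GLMP, a lysosomal glycoprotein that partners a lysosomal transporter, had a log2 change of -0.20.

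The remaining families were small. Vitamin and choline carriers had 7 members with a median log2 change of -0.03, which ran from -0.08 without CTRL replicate 3 to 0.02 without CTRL replicate 2. No member of the 7 had groups without overlap, against 18.7% of all genes tested. The choline carriers SLC44A1 and SLC44A2 averaged 55.0 ± 4.24 and 68.5 ± 6.44 FPKM in EXO and 57.8 ± 2.29 and 72.3 ± 1.42 FPKM in CTRL. The thiamine carriers SLC19A2 and SLC19A3 had log2 changes of 0.06 and 0.13. Organic ion and bile acid carriers had 7 members with a median of -0.06 (-0.10 to -0.04 with 1 library left out), 6 of them negative, and none of the 7 without overlap. SLC10A3, an orphan of the bile acid family, averaged 74.0 ± 2.70 FPKM in EXO and 79.3 ± 2.94 FPKM in CTRL. SLC10A6, a carrier of sulfated steroids, averaged 1.36 ± 0.181 FPKM in EXO and 1.61 ± 0.317 FPKM in CTRL (SD, n = 3 each).

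SLC20A2, a sodium-coupled phosphate importer, averaged 37.3 ± 2.19 FPKM in EXO and 37.3 ± 2.61 FPKM in CTRL. SLC18B1, a vesicular polyamine carrier, was at 2.66, 2.56 and 2.43 FPKM in EXO and 1.97, 2.24 and 2.28 FPKM in CTRL, with no overlap (log2 change 0.17). SLC17A5, the lysosomal sialic acid exporter, was at 23.6, 24.2 and 24.3 FPKM in EXO and 25.5, 25.1 and 25.4 FPKM in CTRL, also with no overlap but with a log2 change of only -0.07. SLC27A2, which activates and takes up fatty acids, was at 2.33, 3.43 and 2.57 FPKM in EXO and 3.48, 3.54 and 3.30 FPKM in CTRL. SLC29A1, the nucleoside transporter of the plasma membrane, averaged 16.9 ± 2.27 FPKM in EXO and 14.5 ± 1.249 FPKM in CTRL (SD, n = 3 each; log2 change 0.20, and 0.31 without EXO replicate 2), the opposite sign to SLC29A3.

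In level, the carriers ran from 1.01 FPKM for SLC25A47 to 665.1 FPKM for SLC25A3 as means over the 6 libraries, with a median of 14.3 FPKM, close to the 14.8 FPKM of all genes in the table. A set of 10 carriers averaged 100 FPKM or more, in the order SLC25A3, SLC25A5, SLC1A6, SLC25A39, SLC2A1, SLC9A3R1, SLC1A5, SLC2A13, SLC30A9 and SLC25A1. Neighbours overlapped across libraries between SLC1A6 and SLC25A5, between SLC2A1 and SLC25A39, and from SLC9A3R1 down to SLC25A1. Another 32 carriers averaged under 5 FPKM, where the log2(FPKM + 1) scale understates changes. SLC25A47, a carrier known from liver, showed this: it was at 0.418, 1.24 and 0.700 FPKM in EXO and 1.39, 1.28 and 1.03 FPKM in CTRL, a log2 change of -0.35 (-0.52 without EXO replicate 2).

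Genes taken as carriers but without an SLC name were listed for comparison, with earlier results of these data known. Of 39 listed, 26 were found, and whether each is a carrier was not checked. Of the 26 found, 7 had a positive and 19 a negative log2 change, with a median of -0.08, and in limma 0 passed over all genes tested. At an unadjusted p under 0.05, 1 was higher and 5 lower, against 5.06% and 7.5% of all genes tested. TUSC3, linked to magnesium transport, averaged 105.4 ± 4.86 FPKM in EXO and 126.1 ± 3.12 FPKM in CTRL (SD, n = 3 each). The log2 changes of SFXN3, a mitochondrial serine carrier, and ANKH, -0.95 and -0.93, were larger in size than that of any of the 150 rows. SFXN3 was of low level, at 0.881 ± 0.0622 FPKM in EXO and 2.64 ± 0.380 FPKM in CTRL (SD, n = 3 each). It did not pass (limma adjusted p = 0.0833).

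EXO replicate 2 differed from the other EXO libraries in many carriers. Without it, 57 carriers had groups that did not overlap, 38% of the family, against 40.9% of all genes tested. For 27 carriers, 18% of the family, the groups were apart only without that library, as for 22.3% of all genes tested. The 3 carriers that passed an adjusted p of 0.05 without it were SLC15A1 and SLC1A1, which fell, and SLC2A2, which rose, 2% of the family against 2.74% of all genes tested. Without any 1 of the other 5 libraries, 0 carriers passed in limma. At an unadjusted p under 0.05 the count was 32 without EXO replicate 2, against 22.1% of all genes tested, and 11 without CTRL replicate 2, against 7.4% of all genes tested.

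**Figure D4:**
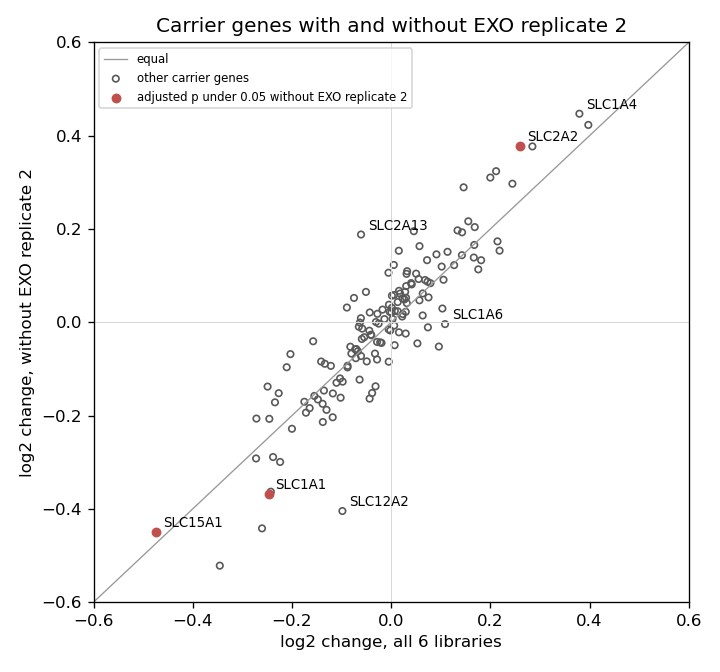
Log2 change of FPKM + 1 (EXO over CTRL) of each of the 150 carrier rows in all 6 libraries (x axis) and without EXO replicate 2 (y axis), with the line of equality. SLC15A1 lies close to the line (-0.47 and -0.45), SLC1A1 and SLC2A2 lie farther from 0 without that library (-0.37 and 0.38), and SLC2A13 changes sign (-0.06 and 0.19).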

How the data were processed

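RNA was sequenced in 3 EXO and 3 CTRL libraries, prepared as stranded mRNA libraries per the labels' protocols. The submitters' processing notes name bcl2fastq 1.8.4, TopHat and Cufflinks, and the Sscrofa11.1 assembly. Further versions, annotation and filters: not given in the sources used here. Because Cufflinks is named and the range of values fits, the deposited values are treated as FPKM computed by the authors, although the header names no unit. The table had 10916 rows, 1 of them empty, and no zeros, so carriers silent in a library cannot be seen.

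Log2(FPKM + 1) values of genes averaging 1 FPKM or more entered limma 3.58.1 under R 4.3.3, two-sided, with an intensity trend and 4 residual degrees of freedom. The fit was tested on simulated data. Figures used Python 3.11.15 and matplotlib 3.10.9. Cargo groups follow family numbers. Members and lists were chosen with earlier results of these data known. Named genes were up to 12 in each direction by p among those whose groups did not overlap, the 3 most abundant and the 3 of smallest p in each cargo group, any that passed without 1 library, and the 3 of smallest p in comparison lists. Others are said to be named after their values were seen or stand as family or list background. The separate values of 1 gene of a comparison list are not reported here. Locations are those of RefSeq for the symbol. Of the table's identifiers, 68.7% were found in the reference table. Pseudocount, filter, scaling and variance model were varied, the replicate number was tried as a block, and each library was left out in turn.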

Additional observations from a re-analysis of the deposited data

How the results depend on the processing

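Counts of carriers passing an adjusted p of 0.05 in limma ran from 0 to 3 with 1 library left out, with 3 only without EXO replicate 2, and were 0 under the 8 other settings planned. Counts at an unadjusted p under 0.05 ran from 11 (without CTRL replicate 2) to 32 (without EXO replicate 2), against 20, and non-overlapping groups from 38 to 57, where fewer libraries make separation easier. The median log2 change over the carriers moved by less than the spread between libraries under every setting, from -0.0257 to -0.00013. Of 58 named genes, 46 kept their direction under all settings. With 1 library left out, the log2 change ran from -0.0328 to 0.195 for SLC16A1, -0.00401 to 0.182 for SLC1A6, -0.0515 to 0.047 for SLC20A2, -0.185 to 0.0173 for SLC22A18, -0.0277 to 0.0195 for SLC25A3, -0.0392 to 0.0556 for SLC25A39. It ran from -0.208 to 0.188 for SLC2A13, -0.011 to 0.154 for SLC31A2, -0.0197 to 0.0125 for SLC39A1, -0.0396 to 0.0615 for SLC41A3, -0.0317 to 0.0376 for SLC4A2, -0.152 to 0.0242 for SLC4A4. SLC39A1 was at 0.0109 with quantile normalization. The cause was not tested.

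Samples of the same replicate number did not deviate together in every pair (correlations over all genes of 0.16, 0.14 and -0.07). Over the carriers these correlations were 0.16, 0.33 and -0.04. With so few libraries, whether the numbers pair the samples cannot be settled from these values. With the replicate number as a block, 21 carriers had an unadjusted p under 0.05, against 12.3% of all genes tested, and 0 passed after adjustment, against 0%. With 26 further rows that the reference table names as carriers, an alternative chosen after seeing the data, 26 of 176 rows had an unadjusted p under 0.05, against 12.6% of all genes tested, the groups of 36 did not overlap, against 18.7%, and the median log2 change was -0.01.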

Other observations

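Another 26 rows bear a carrier name in the reference table but not in the deposited one. Among them SLC3A2, the heavy chain that brings SLC7 amino acid exchangers to the plasma membrane, was at 121.8, 111.8 and 133.9 FPKM in EXO and 113.1, 104.9 and 101.5 FPKM in CTRL (log2 change 0.20, limma adjusted p = 0.347). SLC44A4, a choline-like transporter of epithelia, was at 39.5, 39.97 and 41.6 FPKM in EXO and 48.4, 48.0 and 45.8 FPKM in CTRL, with no overlap (log2 change -0.23, adjusted p = 0.234). SLC27A4, a fatty acid transporter, was at 22.3, 26.7 and 24.1 FPKM in EXO and 29.3, 28.9 and 28.2 FPKM in CTRL (log2 change -0.24). SLC35C1, which supplies GDP-fucose to the Golgi, was at 6.41, 6.80 and 6.22 FPKM in EXO and 7.64, 7.95 and 7.79 FPKM in CTRL, with no overlap (log2 change -0.24). None of these passed, and all were named after their values were seen.

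SLC20A2 occupies 2 rows under different identifiers, 1 of them named only in the reference table. The named row was at 35.9, 36.2 and 39.8 FPKM in EXO and 34.6, 37.5 and 39.8 FPKM in CTRL, and the other at 36.7, 36.4 and 40.8 FPKM in EXO and 36.5, 37.6 and 41.1 FPKM in CTRL. The rows that carry the name SLC2A13 differ far more, at 128.1 and 20.4 FPKM in EXO and 130.0 and 23.6 FPKM in CTRL on average. Whether these rows share reads was not tested.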
